A study of Rattus norvegicus with 12 samples.

Results

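The 10 neuropeptide genes Adcyap1, Npy, Sst, Vip, Cck, Crh, Tac1, Penk, Pdyn and Cort were followed through the RNA sequencing counts of rat cerebral cortex. They were taken by gene symbol, and 8 of them matched a row among 17268 genes. Tac1 and Cort were not analysed here. The 12 libraries came from adult male Sprague Dawley rats, in 4 groups of 3 libraries. Sham rats had the neck vessels opened with no clot injected, and received neither rt-PA nor acupuncture. In Model rats a blood clot was flushed into the origin of the middle cerebral artery to give an embolic stroke, and nothing else was done. The rt-PA rats had the same stroke and then 10 mg/kg of rt-PA, the recombinant form of the clot-dissolving enzyme tissue plasminogen activator, by tail vein at 6 h. The rt-PA+Acu rats had the stroke, acupuncture at the GV26 and PC6 points at 2 h, and the same rt-PA dose at 6 h. No library came from rats with acupuncture alone, so the effect of acupuncture could be read only on top of rt-PA. The labels name the tissue as cerebral cortex and do not say which part of it was taken.

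Neuropeptides are cut from larger precursor proteins, packed into dense-core granules and released by busy neurons to act on G protein-coupled receptors nearby. In the cortex, somatostatin (Sst), vasoactive intestinal peptide (Vip) and neuropeptide Y (Npy) are made mainly by GABAergic interneurons, cholecystokinin (Cck) by both interneurons and pyramidal cells, and PACAP (Adcyap1) largely by excitatory neurons, while the opioid precursors Penk and Pdyn are far more abundant in the striatum beneath it. Transcription of several of these genes follows neuronal activity through cAMP and calcium signals.

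The promoters were read from RefSeq for the build GRCr8, and 5 of the 8 genes had an entry in that table (Adcyap1, Npy, Pdyn, Sst and Vip). Cck, Crh and Penk had none. The letters below run 5' to 3' on the strand of the gene and are shown because cAMP-responsive letters near the start are a known feature of Sst and Vip. The stretches are the 150 bases that end at the annotated start for Npy (chr4:80211961-80212110, plus strand), Adcyap1 (chr9:120556474-120556623, minus strand), Pdyn (chr3:137366504-137366653, minus strand) and Vip (chr1:44470330-44470479, plus strand), and the 30 bases around the match for Sst (chr11:90461537-90461566, plus strand). Capitals mark matches, on either strand, to the cAMP response element TGACGTCA, its half-site TGACG, the AP-1 site TGACTCA or the TATA box TATAAA.
Npy: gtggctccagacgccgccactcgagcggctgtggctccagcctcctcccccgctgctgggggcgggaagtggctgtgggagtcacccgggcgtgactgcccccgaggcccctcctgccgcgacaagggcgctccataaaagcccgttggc
Adcyap1: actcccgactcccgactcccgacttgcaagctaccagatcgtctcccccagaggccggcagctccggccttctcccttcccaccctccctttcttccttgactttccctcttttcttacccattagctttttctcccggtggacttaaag
Pdyn: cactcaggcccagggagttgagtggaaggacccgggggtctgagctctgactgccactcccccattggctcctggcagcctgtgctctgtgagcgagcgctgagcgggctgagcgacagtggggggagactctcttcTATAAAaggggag
Vip: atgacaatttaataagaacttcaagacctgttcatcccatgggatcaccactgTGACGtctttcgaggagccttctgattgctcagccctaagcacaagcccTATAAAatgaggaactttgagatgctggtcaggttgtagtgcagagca
Sst: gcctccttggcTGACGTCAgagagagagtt
The whole cAMP response element, which contains the half-site on each strand, was found in 1 of the 5 promoters, that of Sst, at bases 3 to 10 after the annotated start. Among all 33469 promoters of the table, each 300 bases long, 1.83% held it. The half-site was found in Sst and at -97 to -93 in Vip, and in 21.2% of all promoters. The AP-1 letters were found in 0 of the 5 and in 4.63% of all promoters. The TATA box letters were found in 3 of the 5 (Adcyap1, Pdyn and Vip) and in 14.2% of all promoters. Those of Adcyap1, and further matches in Vip at -175 to -170 and -165 to -160, lie outside the stretches shown. Npy held none of the 4 motifs in this window. A match is a match of letters only.

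Total counts per library lay between 11678450 and 13616935. Levels are given as CPM (counts scaled to a common library size) after scaling by TMM factors, and they compare libraries, not genes, since transcript length is not corrected for. Before the results, some libraries must be set apart. Over 10 genes of striatal projection neurons, the summed level was 441, 1110 and 874 CPM in Sham replicates 1, 2 and 3, against 169 to 319 CPM in the other 9 libraries. Adora2a, a receptor of the striatal neurons that make enkephalin, stood at 7.03, 75.2 and 58.0 CPM in Sham and at 3.36 to 9.50 CPM in the other libraries. Sham replicates 2 and 3 therefore held more striatal transcripts than Sham replicate 1. Summed myelin genes also varied within groups, from 12000 to 17900 CPM in Sham, 1670 to 8500 CPM in Model, 2690 to 11400 CPM in rt-PA and 3220 to 21100 CPM in rt-PA+Acu. Cortical excitatory neuron genes were present in all 12 libraries but moved with the groups, at a summed 4640 to 4990 CPM over 10 genes in Sham, 1470 to 1730 CPM in Model, 1030 to 1530 CPM in rt-PA and 2300 to 4280 CPM in rt-PA+Acu. Of the fits without Sham replicates 2 and 3, those of the precursors and the counts of the gene lists are given beside the results.

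**Figure D1:**
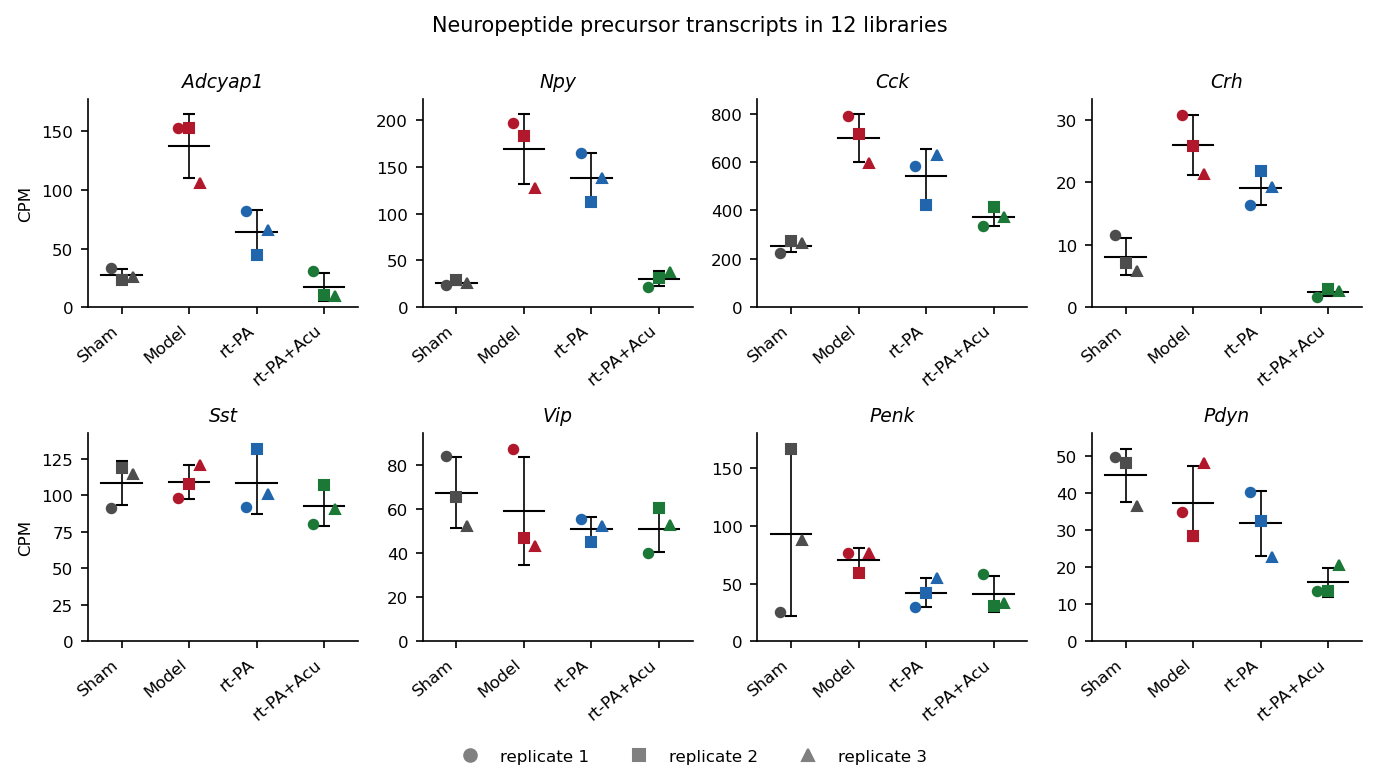
CPM of the 8 neuropeptide precursors (y axis, linear from 0, a scale for each gene) in the 3 libraries of each group (x axis), with the mean as a line and 1 SD as the bar. Adcyap1, Npy, Cck and Crh were high in Model, and in rt-PA+Acu Npy and Adcyap1 overlapped Sham and Crh and Pdyn lay below it, while the 4 groups of Sst and of Vip overlapped.

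Compared with Sham, 4 of the 8 precursors were higher in Model and none was lower. The 4 were Npy, Adcyap1, Crh and Cck, with rises of 2.7, 2.33, 1.69 and 1.47 on the log2 scale. A gene was called where edgeR's quasi-likelihood test gave an adjusted p under 0.05 and the log2 fold change was over 1 in size. Of all 12884 genes tested, 21.5% were called in this comparison, 9.43% as higher and 12% as lower. The median log2 fold change was 0.74 over the 8 precursors and 0.01 over all genes tested. In bulk tissue, fewer cells of a type and less RNA per cell cannot be told apart. Markers of several cell types moved in the same comparison. In Model, 6 of 10 genes of cortical excitatory neurons were lower than in Sham and 0 were higher, as were 9 of 9 striatal genes, 5 of 6 of oligodendrocytes and 3 of 6 of microglia, each with 0 higher. Of 6 astrocyte genes 4 were lower and 1 was higher. Of 7 genes of blood-derived myeloid cells tested 3 were higher and 0 lower. Over 8 such genes the summed level was 164 to 246 CPM in Model against 64.8 to 73.1 CPM in Sham. Within that sum, mean Mmp9 went from 5.23 CPM in Sham to 89.1 in Model, and mean Lyz2 from 54.2 to 97.5 CPM. S100a8, S100a9 and Csf3r were not called, at Sham means of 1.43, 2.56 and 5.02 CPM and Model means of 1.71, 3.2 and 3.39 CPM. Of 4 endothelial genes 1 was higher and 0 lower. With Sham replicate 1 as the only Sham library, the genes called lower were 5 of 10 for excitatory neurons, 3 of 9 for striatum, 0 of 6 for oligodendrocytes, 2 of 6 for microglia and 4 of 6 for astrocytes, and 2 of 8 myeloid genes were higher. Their part in the changes of the precursors was not tested.

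Npy encodes neuropeptide Y, a peptide that acts on Y receptors to restrain excitatory transmission and to constrict vessels. Its level was 23.4, 29.2 and 25.9 CPM in the Sham libraries, 197, 183 and 127 CPM in Model, 165, 112 and 138 CPM in rt-PA, and 21.7, 31.6 and 37.6 CPM in rt-PA+Acu. All 6 libraries of Model and rt-PA lay above all 6 of Sham and rt-PA+Acu. The mean rose 6.46-fold from Sham to Model, a log2 fold change of 2.7 ± 0.18 (SE), with an adjusted p of 2.25e-05 in the edgeR test, adjusted by Benjamini-Hochberg over all genes tested. Model and rt-PA overlapped, and their difference of -0.29 on the log2 scale had an adjusted p of 0.685. Between rt-PA and rt-PA+Acu the mean fell 4.56-fold, a log2 fold change of -2.19 ± 0.23 with an adjusted p of 0.00134. The rt-PA+Acu libraries then overlapped those of Sham, with a log2 difference of 0.22 and an adjusted p of 0.555. The order of the 4 groups was thus Model, rt-PA, rt-PA+Acu, Sham, and neighbours did not separate except rt-PA from rt-PA+Acu.

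Adcyap1 encodes PACAP, a peptide of the secretin family that raises cAMP and is known as a protective factor in neurons. Its level was 33.4, 23.0 and 26.1 CPM in Sham, 153, 153 and 106 CPM in Model, 82.1, 44.2 and 66.1 CPM in rt-PA, and 30.6, 10.6 and 9.21 CPM in rt-PA+Acu. It stepped down from group to group, Model above rt-PA and rt-PA above rt-PA+Acu, without overlap in either step. From Sham to Model the mean rose 4.99-fold, from 27.5 ± 5.31 to 137 ± 27.4 CPM (SD, n = 3), a log2 fold change of 2.33 ± 0.19 (edgeR, adjusted p 4.8e-05). From Model to rt-PA it was lower by 2.14-fold, a log2 difference of -1.10 ± 0.24 that did not pass the test (edgeR, adjusted p 0.296, unadjusted p 0.00195). DESeq2 gave that same step an adjusted p of 0.00198. From rt-PA to rt-PA+Acu the mean fell 3.81-fold, a log2 fold change of -1.94 ± 0.46 (edgeR, adjusted p 0.0169). Leaving out rt-PA+Acu replicate 2 or rt-PA replicate 1 ended that call, with adjusted p of 0.062 and 0.0564 by the same test. Within rt-PA+Acu, replicate 1 lay inside the Sham range and replicates 2 and 3 lay below it. The log2 difference from Sham was -0.71 with an adjusted p of 0.345, and -1.47 with an adjusted p of 0.0134 when replicate 1 was left out of the edgeR fit.

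Crh encodes corticotropin-releasing hormone, the hypothalamic stress peptide that cortical interneurons also make. Its level was 11.5, 7.04 and 5.76 CPM in Sham, 30.9, 25.8 and 21.3 CPM in Model, 16.4, 21.9 and 19.2 CPM in rt-PA, and 1.68, 2.88 and 2.62 CPM in rt-PA+Acu. The last 3 values stand on 20, 33 and 35 counts. Model lay above Sham without overlap, with a log2 fold change of 1.69 ± 0.27 (edgeR, adjusted p 0.00104). Model and rt-PA overlapped, with a log2 difference of -0.44 and an adjusted p of 0.487. The fall from rt-PA to rt-PA+Acu was the largest among the 8 precursors, 8.01-fold between the means, a log2 fold change of -3.00 ± 0.25 (edgeR, adjusted p 0.00104). Crh ended below Sham in rt-PA+Acu, in each of the 3 libraries and by 3.38-fold between the means. That log2 fold change of -1.75 ± 0.34 was called with an adjusted p of 0.0295 in edgeR, and the call was lost when any 1 Sham library was left out (adjusted p 0.0508 to 0.104) and when rt-PA+Acu replicate 2 was left out (0.0693).

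Cck encodes cholecystokinin, a peptide of interneurons and pyramidal cells that acts in cortex on the CCK-B receptor. Its level was 226, 272 and 266 CPM in Sham, 789, 715 and 596 CPM in Model, 584, 421 and 629 CPM in rt-PA, and 337, 415 and 372 CPM in rt-PA+Acu. All 9 libraries of rats with a stroke lay above all 3 Sham libraries. The rise in Model was 2.74-fold between the means, a log2 fold change of 1.47 ± 0.13 (edgeR, adjusted p 5.95e-05). In rt-PA+Acu the level lay between those of Sham and rt-PA and overlapped neither. Both gaps passed the adjusted p of edgeR but not the fold threshold, with log2 fold changes of -0.54 ± 0.17 against rt-PA (adjusted p 0.0438) and 0.56 ± 0.12 against Sham (adjusted p 0.0425). Of the 4 precursors raised in Model, Cck was the one whose rt-PA+Acu libraries all stayed above Sham.

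Model replicate 3 gave the lowest Model value of Npy, Adcyap1, Cck and Crh, and it also held the most myelin transcripts of the Model libraries, 8500 CPM against 1670 and 3790 CPM. Whether the one bears on the other was not tested. Without it, the same 4 precursors were called higher in Model, with log2 fold changes of 2.87 for Npy, 2.49 for Adcyap1, 1.57 for Cck and 1.82 for Crh. Without Sham replicates 2 and 3 together, 5 of the 8 were called higher, these 4 and Penk, which is described below, and of all 13352 genes tested in that fit 14.8% were called, 6.72% as higher. With Sham replicate 1 as the only Sham library, the log2 fold changes were 2.85 for Npy, 2.04 for Adcyap1, 1.63 for Cck and 1.18 for Crh. That library had the highest Sham values of Adcyap1 and Crh and the lowest of Npy and Cck. It also stood apart in Fos and Fosb, genes that respond early to neuronal activity. Fos was at 50.8 CPM there against 17.5 and 13.7 CPM in the other Sham libraries, and Fosb at 87.8 against 14.1 and 17 CPM. Over the list of 11 immediate early genes to which both belong, the summed level was 826 CPM there against 685 and 572 CPM. Arc and Npas4 of that list were highest in Sham replicate 2, with Arc at 220 CPM against 153 CPM in replicate 1, and Npas4 at 12.1 against 8.81 CPM.

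**Figure D2:**
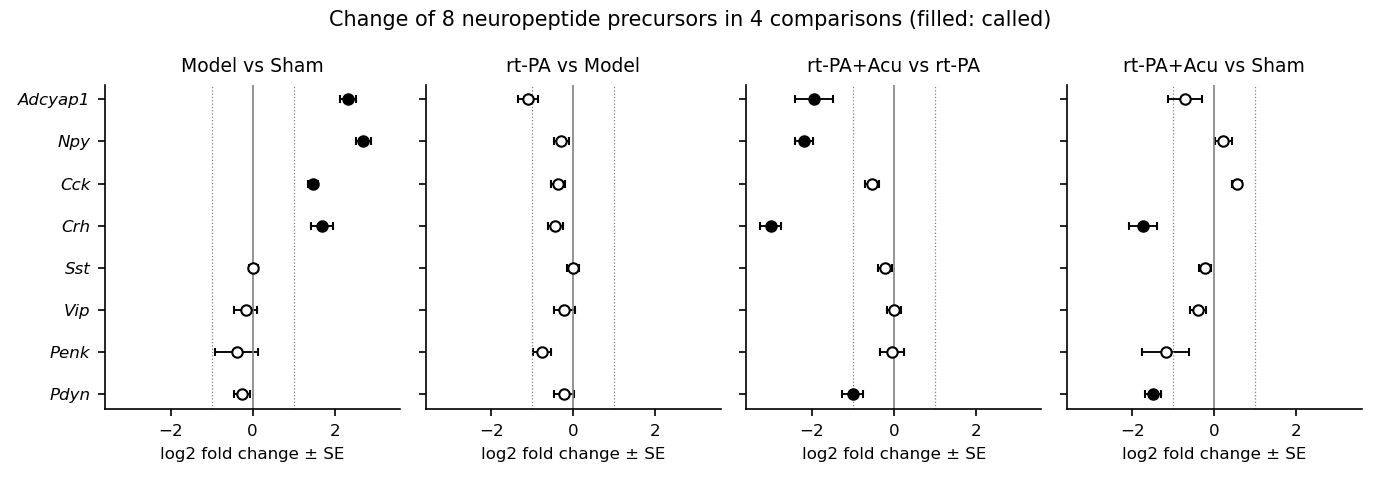
Log2 fold change with its SE (x axis) of the 8 precursors (rows) in the 4 comparisons (panels), where filled points passed the adjusted p and fold thresholds of edgeR's test and the dotted lines mark a log2 change of 1 in size. There are 4 filled points to the right in Model vs Sham, none in rt-PA vs Model, 4 to the left when rt-PA+Acu is set against rt-PA and 2 when it is set against Sham.

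The interneuron peptides Sst and Vip were called in none of the 4 comparisons. Sst encodes somatostatin, which marks dendrite-targeting interneurons. Its level was 91.5, 119 and 115 CPM in Sham, 98.0, 108 and 121 CPM in Model, 91.8, 132 and 101 CPM in rt-PA, and 80.1, 107 and 90.6 CPM in rt-PA+Acu. The 4 groups overlapped throughout, and the log2 difference of Model from Sham was 0.02 ± 0.12 (edgeR, adjusted p 0.905), with a 95% confidence interval from -0.27 to 0.30. The largest difference of Sst in the 4 comparisons was -0.23, between rt-PA+Acu and Sham (edgeR, adjusted p 0.386). Vip marks interneurons that inhibit other interneurons. Its level was 84.2, 65.7 and 52.3 CPM in Sham, 87.4, 47.1 and 43.3 CPM in Model, 55.4, 44.9 and 52.2 CPM in rt-PA, and 39.9, 60.3 and 52.8 CPM in rt-PA+Acu. These groups overlapped too, with log2 differences of -0.17 in Model and -0.40 in rt-PA+Acu against Sham (edgeR, adjusted p 0.623 and 0.279). The 95% confidence intervals, -0.81 to 0.47 and -0.87 to 0.07, were wider than those of Sst. Model replicate 1 held the highest Vip value of all 12 libraries, and without it the log2 difference of Model from Sham was -0.57, past the adjusted p of edgeR (0.039) and short of the fold threshold. Many cortical interneurons make both Npy and Sst, and the interval of Npy in Model, 2.29 to 3.11, lay above that of Sst, with no test between the genes.

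Penk encodes the enkephalins, opioid peptides abundant in striatal neurons. Its level was 25.4, 167 and 87.6 CPM in Sham, 76.9, 58.9 and 76.2 CPM in Model, 29.5, 41.7 and 54.7 CPM in rt-PA, and 58.8, 30.4 and 33.6 CPM in rt-PA+Acu. The Sham libraries spanned the values of all other libraries, and the 2 highest were the 2 with the most striatal transcripts. With all Sham libraries, the log2 difference of Model was -0.39 ± 0.52 (edgeR, adjusted p 0.55). Without Sham replicates 2 and 3 it turned to 1.48, past the threshold with an adjusted p of 0.0107, on a single Sham library that is assumed to vary like the others. A direction for Penk after stroke could therefore not be given from these libraries. The comparison of rt-PA with Model does not use Sham, and there Penk was lower in rt-PA without overlap, by -0.75 ± 0.22 on the log2 scale (edgeR, adjusted p 0.374, unadjusted p 0.00995). Against rt-PA, the rt-PA+Acu level differed by -0.04 (adjusted p 0.936).

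**Figure D3:**
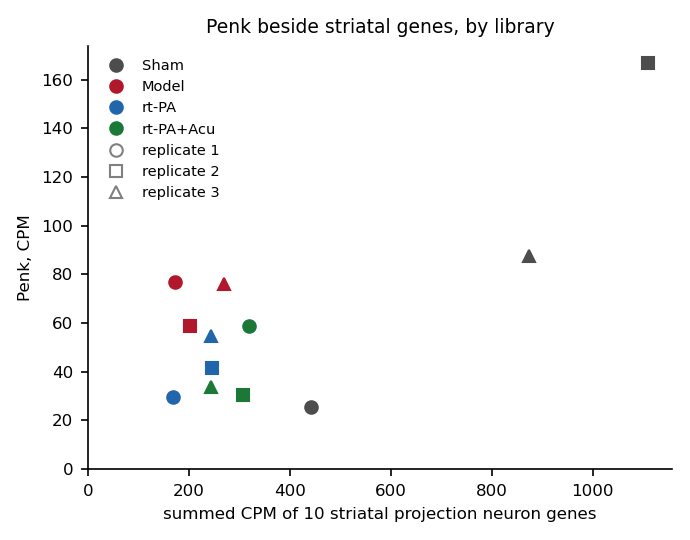
Penk in CPM (y axis) against the summed CPM of 10 striatal projection neuron genes (x axis), both from 0, with 1 point for each of the 12 libraries, coloured by group and shaped by replicate. Sham replicates 2 and 3 lie alone at the right, at 1110 and 874 CPM of striatal genes and 167 and 87.6 CPM of Penk.

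Pdyn encodes the dynorphins, opioid peptides that act on the kappa receptor. Its level was 49.8, 48.2 and 36.5 CPM in Sham, 35, 28.6 and 48.3 CPM in Model, 40.4, 32.5 and 22.8 CPM in rt-PA, and 13.6, 13.7 and 20.5 CPM in rt-PA+Acu. Sham, Model and rt-PA overlapped, and all rt-PA+Acu libraries lay below all 9 others. The log2 difference of Model from Sham was -0.26 (edgeR, adjusted p 0.306). In rt-PA+Acu the level was lower than in Sham by 2.82-fold, a log2 fold change of -1.49 ± 0.20 (edgeR, adjusted p 0.00857). That call ended without Sham replicate 2 (adjusted p 0.0545) and without Sham replicates 2 and 3 together (log2 fold change -1.65, adjusted p 0.235). Against rt-PA the log2 fold change was -1.0 ± 0.26 with an adjusted p of 0.0212, at the fold threshold itself. The call was lost with DESeq2 or with RLE factors (-0.99 in each), and in turn without rt-PA+Acu replicate 1, rt-PA+Acu replicate 2, rt-PA replicate 1 or rt-PA replicate 2 (-0.80 to -0.99, adjusted p 0.0466 to 0.0789). Pdyn was the 1 precursor called lower in rt-PA+Acu that was not called higher in Model.

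Compared with Model, none of the 8 precursors was called in rt-PA by edgeR, as was none of all 12941 genes tested (0%). At an unadjusted p under 0.05 with the same fold threshold 1 of the 8 passed, Adcyap1, beside 1.86% of all genes tested. With DESeq2, Adcyap1 was called among 74 genes. The median log2 difference of the 8 was -0.32, against 0 over all genes tested, and each of the 8 lay below 0, Sst only by -0.01 (0.04 with library size alone in place of TMM).

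Compared with rt-PA, 4 of the 8 precursors were lower in rt-PA+Acu and none was higher: Crh, Npy, Adcyap1 and Pdyn. Of all 12999 genes tested, 15.3% were called, 7.17% as higher and 8.16% as lower. The median log2 fold change was -0.77 over the 8 and 0 over all genes tested. Of the 4 precursors that rose in Model, 3 were called lower here (Crh, Npy and Adcyap1), and Cck passed the adjusted p alone. The comparisons Model vs Sham and rt-PA+Acu vs rt-PA share no library. Genes outside the 8, among them Vgf, Scg2, Crhbp, Gal, Sstr4 and Bdnf, were called higher in Model and lower here too. Pam and Trh were called higher in Model and not called here. The share of all genes higher in Model that were called lower here was not computed. Within rt-PA+Acu, replicate 3 had the least of the cortical excitatory neuron genes, 2300 CPM against 3710 and 4280 CPM, and the same 4 were called without it. Markers of other cell types moved here too. Of 8 genes of blood-derived myeloid cells 7 were lower in rt-PA+Acu and 0 higher, at a summed 48.2 to 55.9 CPM against 224 to 458 CPM in rt-PA, and Mmp8 was at 0 in all 3 rt-PA+Acu libraries. Of 4 endothelial genes 3 were lower and 0 higher, at a summed 71.9 to 82.1 CPM against 231 to 344 CPM. Of 10 genes of excitatory neurons 6 were higher and 0 lower, and so were 3 of 6 of astrocytes, 2 of 8 striatal genes and 1 of 6 of microglia. None of the 6 oligodendrocyte genes was called by edgeR or passed at an unadjusted p under 0.05 with the same fold. Their part in the falls of the precursors was not tested. The count was 2 without rt-PA+Acu replicate 2 and without rt-PA replicate 1. The calls of Npy and Crh held without any 1 library, with log2 fold changes of -2.37 to -1.99 for Npy and -3.14 to -2.80 for Crh.

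Compared with Sham, 2 of the 8 precursors were lower in rt-PA+Acu (Crh and Pdyn) and none was higher. The shares of all 12775 genes tested were 2.06% called, 0.916% as higher and 1.14% as lower. The calls of Crh and Pdyn, like those of all other genes, were lost without Sham replicates 2 and 3 together, in a fit that rests on 1 Sham library. The count of precursors called was 0 without Sham replicate 2, and 1 without Sham replicate 1, Sham replicate 3 or rt-PA+Acu replicate 2. Striatal genes were lower too in this comparison, 7 of 9 tested, and their part in the change of Pdyn was not tested.

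The receptors of these peptides were followed next. In Model, 1 of 16 receptor genes tested was higher than in Sham (Sstr4) and 6 were lower. Adcyap1r1, the PACAP receptor, stood at 300, 291 and 253 CPM in Sham and at 134, 106 and 104 CPM in Model, with no overlap, opposite in direction to its ligand (log2 fold change -1.28 ± 0.12, edgeR, adjusted p 0.000106). It stayed low in rt-PA, at 109, 105 and 140 CPM, and was at 170, 217 and 178 CPM in rt-PA+Acu, higher than in rt-PA by 0.67 on the log2 scale (edgeR, adjusted p 0.0142), short of the fold threshold. Cckbr, the CCK-B receptor, followed the same course, at 26.3, 21.4 and 18.4 CPM in Sham, 9.39, 7.86 and 8.67 CPM in Model, 6.72, 6.24 and 5.67 CPM in rt-PA, and 20.0, 17.7 and 10.2 CPM in rt-PA+Acu. Its log2 fold changes were -1.34 in Model and 1.36 in rt-PA+Acu against rt-PA (edgeR, adjusted p 0.00045 and 0.00871). So for PACAP and for cholecystokinin the precursor was higher and the receptor lower in Model, in each of the 3 libraries. In the same comparison 6 of 10 excitatory neuron genes were lower, and of 6 astrocyte genes 4 were lower and 1 higher. The part of cell types in the changes of the receptors was not tested. Against Sham replicate 1 alone, the log2 fold changes in Model were -1.38 for Adcyap1r1 and -1.6 for Cckbr, both still called.

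Vipr2, a receptor for VIP and PACAP, stood at 4.53, 5.20 and 8.21 CPM in Sham, 1.45, 1.18 and 2.89 CPM in Model and 4.21, 4.79 and 9.73 CPM in rt-PA+Acu, and had a log2 fold change of -1.68 in Model while Vip itself was not called (edgeR, adjusted p 0.00811). Sstr4, a somatostatin receptor, was the exception in direction, at 10.8, 7.12 and 7.95 CPM in Sham, 36.6, 30.5 and 27.0 CPM in Model, 23.4, 26.8 and 23.6 CPM in rt-PA, and 11.2, 10.5 and 3.74 CPM in rt-PA+Acu. Its log2 fold changes were 1.88 in Model and -1.54 in rt-PA+Acu against rt-PA (edgeR, adjusted p 0.000158 and 0.0156), while its ligand Sst was not called in either. Sstr3 was higher in Model by 0.74 and Sstr2 different by -0.86, both past the adjusted p of edgeR (0.00117 and 0.01) and short of the fold threshold. Npy1r, a main receptor of neuropeptide Y, was at 29.7, 28.7 and 37.3 CPM in Sham and 59.8, 51.1 and 36.3 CPM in Model, which overlapped (log2 difference 0.63, edgeR, adjusted p 0.0223). Crhr1, the receptor of CRH, had Sham and Model libraries that overlapped, at 13.3 to 19.9 and 16.2 to 29.7 CPM, and in rt-PA+Acu it differed from rt-PA by -0.91 (edgeR, adjusted p 0.0351), short of the fold threshold.

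Of the opioid receptors, Oprk1, on which dynorphin acts, was at 7.19, 11.9 and 7.16 CPM in Sham and at 0.534, 0.507 and 2.73 CPM in Model (log2 fold change -2.79 ± 0.58, edgeR, adjusted p 0.00417). Oprm1, on which enkephalins act, was at 2.59, 3.83 and 2.36 CPM in Sham and 1.68, 1.10 and 0.578 CPM in Model (log2 fold change -1.36, adjusted p 0.0289). Sham and Model libraries did not overlap for either receptor. Oprd1, another opioid receptor of the list, was not lower in Model, with means of 3.09 CPM in Sham and 3.72 CPM in Model. Its log2 difference of 0.28 was not called (edgeR, adjusted p 0.42). The call of Oprm1 ended without Model replicate 2, Model replicate 3, Sham replicate 1 or Sham replicate 2 (edgeR, adjusted p 0.0525 to 0.112). With Sham replicate 1 as the only Sham library, Oprk1, Oprm1 and Vipr2 were no longer called, at adjusted p of 0.0911, 0.26 and 0.173 in edgeR, and the receptor count fell to 1 higher, Sstr4 at a log2 fold change of 1.55, and 3 lower. Against rt-PA, rt-PA+Acu had 3 receptors higher and 1 lower of 16 tested, and against Sham 0 were called, with 1 at an unadjusted p under 0.05 and past the fold threshold, and 1 by DESeq2.

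**Figure D4:**
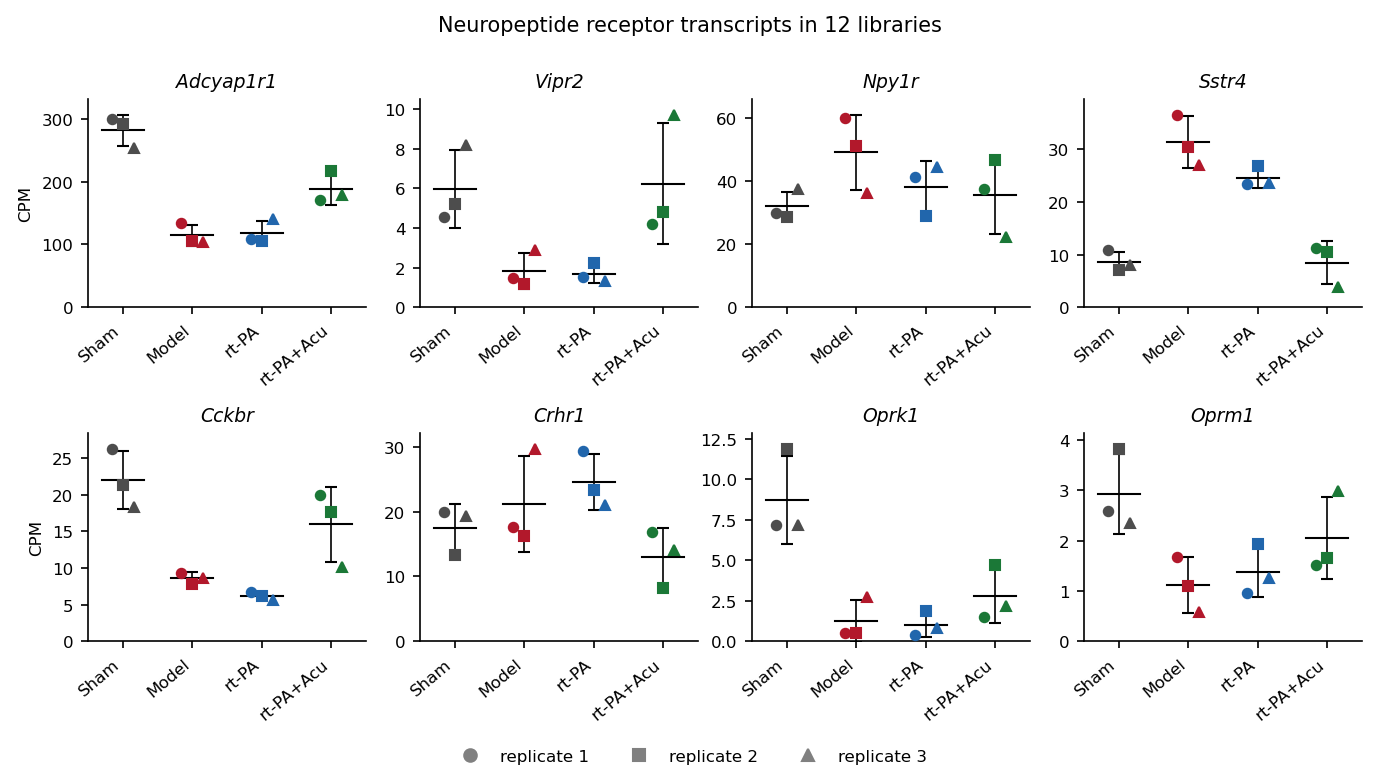
CPM of 8 receptor genes (y axis, linear from 0, a scale for each gene) in the 3 libraries of each group (x axis), with the mean as a line and 1 SD as the bar. Adcyap1r1, Cckbr, Vipr2, Oprk1 and Oprm1 were lower in Model than in Sham and Sstr4 was higher.

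The machinery around the peptides was followed over 15 genes of peptide processing and dense-core granules. In Model, 4 of the 15 were higher than in Sham and 3 were lower, and with Sham replicate 1 as the only Sham library 4 were higher and 2 lower. Vgf, Scg2, Crhbp and Pam were called in that fit, with log2 fold changes of 2.68, 2.34, 1.88 and 1.06. Vgf encodes a granule protein and peptide precursor, and it stood at 193, 191 and 152 CPM in Sham, 1380, 1190 and 1150 CPM in Model, 876, 728 and 860 CPM in rt-PA, and 64.9, 93.0 and 123 CPM in rt-PA+Acu. Like Crh, Vgf ended below every Sham library. Its log2 fold changes were 2.80 in Model and -3.13 in rt-PA+Acu against rt-PA (edgeR, adjusted p 4.82e-06 and 0.00104), and -0.93 against Sham, which did not pass (adjusted p 0.0523). Scg2, the granule protein secretogranin II, had log2 fold changes of 2.58 in Model and -2.29 in rt-PA+Acu against rt-PA (adjusted p 4.07e-05 and 0.00104). Crhbp encodes the protein that binds CRH outside the cell, and it moved with Crh. It stood at 19, 19 and 14.1 CPM in Sham, 71.8, 79.6 and 57.9 CPM in Model, 58.2, 67.6 and 67.0 CPM in rt-PA, and 7.58, 11.7 and 9.95 CPM in rt-PA+Acu. The ligand and its binding protein had the same order of group means, Model, rt-PA, Sham, rt-PA+Acu. Pam, the enzyme that amidates the ends of NPY, PACAP, CCK, VIP and CRH, was named after its values were seen, and rose by 1.13 on the log2 scale in Model (edgeR, adjusted p 2.94e-05). The 3 genes lower in Model were Mme, Cadps2 and Scg3, with log2 fold changes of -2.17, -1.96 and -1.16 (edgeR, adjusted p 0.0024, 0.000324 and 8.44e-05). Mme stood on 14 to 22 counts in the Model libraries. Against Sham, rt-PA+Acu had 0 of 15 called by edgeR and by DESeq2, and 0 at an unadjusted p under 0.05 and past the fold threshold.

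Other neuropeptide precursors outside the 10 gave a wider view. In Model, 6 of 11 tested were higher than in Sham and 2 were lower. The 2 lower were Nppc and Cartpt, with log2 fold changes of -2.38 and -1.77 (edgeR, adjusted p 0.0174 and 0.0462). They stood on 1 to 28 counts in the Model libraries. Trh, the precursor of thyrotropin-releasing hormone, went from 0.404, 2.07 and 0.699 CPM in Sham to 116, 57.5 and 83.1 CPM in Model. Calca, the precursor of calcitonin gene-related peptide, went from 0.970, 0.842 and 0.437 CPM to 48.9, 30.1 and 25.4 CPM. Gal, the galanin precursor, went from 0.647, 0.536 and 0.262 CPM to 21.6, 11.6 and 13.7 CPM. All 3 stood on 3 to 27 counts in the Sham libraries, with log2 fold changes of 6.31, 5.52 and 4.99 (edgeR, adjusted p 3.05e-05, 2.29e-05 and 4e-05). Against rt-PA, 4 of 10 were lower in rt-PA+Acu, among them Gal and Calca with log2 fold changes of -4.16 and -2.72 (edgeR, adjusted p 0.00139 and 0.0252). The call of Calca ended without rt-PA+Acu replicate 1, rt-PA+Acu replicate 2, rt-PA replicate 1 or rt-PA replicate 2 (edgeR, adjusted p 0.0602 to 0.0752). The rt-PA+Acu libraries of Trh did not agree among themselves, at 0.758, 11.9 and 92.4 CPM, with replicate 3 inside the range of Model. Leaving out replicate 3 moved the log2 difference of Trh from -1.01 (adjusted p 0.496) to -3.49 (adjusted p 0.0136). With Sham replicate 1 as the only Sham library, 5 were higher in Model and 0 lower.

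**Figure D5:**
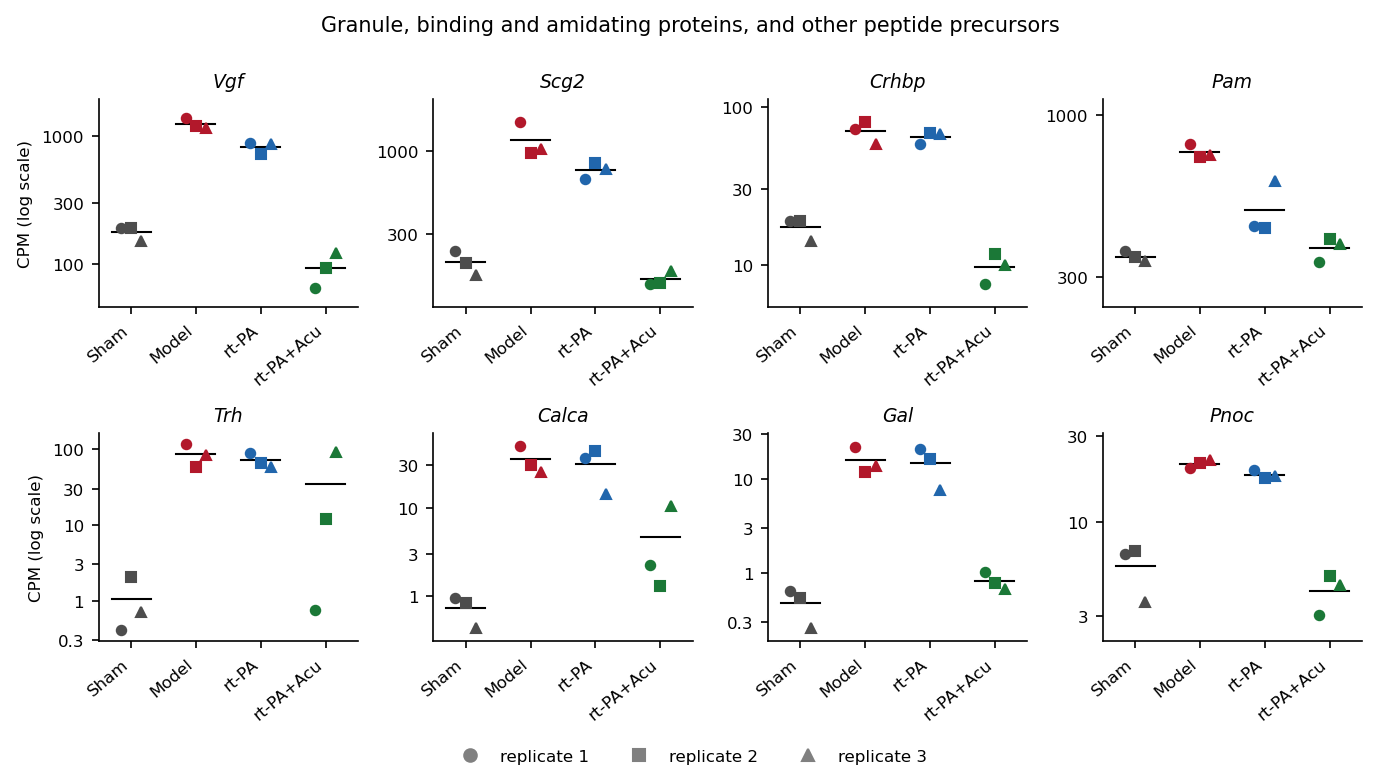
CPM on a log axis (y axis, a scale for each gene) of 4 genes of peptide storage, binding and amidation (upper row) and 4 other neuropeptide precursors (lower row) in the 3 libraries of each group, with lines at the arithmetic mean. All 8 genes drawn were higher in Model than in Sham, while other genes of both lists, not drawn, were lower. Trh in rt-PA+Acu ranged from 0.758 to 92.4 CPM.

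Interneuron genes that are not peptides were set beside Npy, Sst and Vip. Of 15 tested, 0 were higher in Model than in Sham and 5 were lower, among them Erbb4 and Nxph1 with log2 fold changes of -1.35 and -1.13 (edgeR, adjusted p 0.00153 and 0.000104). Gad1 and Gad2, the enzymes of GABA synthesis, were named after their values were seen. They were higher in Model by 0.87 and 0.90 on the log2 scale, past the adjusted p of edgeR (0.000876 and 0.00237) and short of the fold threshold. None of the 15 rose past the fold threshold with all libraries, and 2 did without Model replicate 3 (Gad1 and Gad2). These counts for Model were 0 higher and 4 lower with Sham replicate 1 as the only Sham library. In rt-PA+Acu against rt-PA, 3 of the 15 were higher and 0 lower, and 1 was higher without rt-PA+Acu replicate 3. On the list of 11 immediate early genes, most of them early to respond to neuronal activity, 3 were higher in Model (Atf3, Bdnf and Ier2) and 2 lower (Nr4a1 and Arc). In rt-PA+Acu against rt-PA, 5 were lower and none was higher. When Sham replicate 1 was the only Sham library, 1 was higher (Bdnf) and 1 lower (Nr4a1) in Model. Arc, Ier2 and Fos were named after their values were seen. Bdnf, an activity-regulated growth factor in that list, stood at 40.3, 37.9 and 36.7 CPM in Sham, 235, 220 and 125 CPM in Model, 53.3, 56.8 and 68.9 CPM in rt-PA, and 20.5, 20.4 and 12.4 CPM in rt-PA+Acu. Its group means had the order Model, rt-PA, Sham, rt-PA+Acu, as those of Adcyap1 did, and its rise in Model was 2.26 on the log2 scale with Sham replicate 1 alone. Fos had the order of Bdnf too, with means of 54.7 CPM in Model, 36 in rt-PA, 27.3 in Sham and 12.1 in rt-PA+Acu. It was not called in Model (log2 difference 1.01, edgeR, adjusted p 0.12), and its Sham libraries ranged from 13.7 to 50.8 CPM. The rest of the list had other orders. Atf3, a stress-induced transcription factor, had the largest change in Model of the list, a log2 fold change of 3.33 (edgeR, adjusted p 0.0136), and its mean was 33.9 CPM in Model and 35.4 CPM in rt-PA, against 3.37 CPM in Sham and 1.82 CPM in rt-PA+Acu. Sham replicate 1 held 9.21 CPM of Atf3 and the other Sham libraries 0.459 and 0.437 CPM, so that the log2 fold change was 6.21 without replicate 1 and 1.88 with it alone (edgeR, adjusted p 0.000422 and 0.065). Nr4a1, a nuclear receptor, was highest in Sham, at 94.5, 81.2 and 68.2 CPM, against 23.1, 15.3 and 41.8 CPM in Model (log2 fold change -1.6, edgeR, adjusted p 0.00318).

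Across the 12 libraries, the precursors were compared with 13297 genes by Pearson's r of log2 CPM, as a description in which the groups are shared by all genes. For Npy the closest genes were Gpatch2l (r = 0.995), Wdr1 (0.992) and Icam1 (0.991). For Adcyap1 they were Wnt2 (0.968), Dusp4 (0.961) and Lbh (0.955). For Crh they were Samd4b (0.967), Crhbp (0.964) and Vgf (0.956), so 2 of the 3 were on the list of processing and granule genes. For Cck they were Wdr12 (0.979), Tgoln2 (0.976) and Igsf9b (0.975), and for Pdyn they were Srf (0.956), Nacc1 (0.945) and Mllt1 (0.921). The closest neighbours of the other 3 had lower r, with Pggt1b at 0.900 for Vip, Cox5b at 0.869 for Penk and Snx3 at 0.863 for Sst. Among the precursors themselves, Npy and Cck were the closest pair (r = 0.92), followed by Adcyap1 and Crh (0.85), Npy and Crh (0.84) and Adcyap1 and Npy (0.82). Sst was at 0.23 with Npy and at -0.16 with Vip.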

How the data were processed

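Polyadenylated RNA was sequenced from the cerebral cortex of rats in 12 libraries, 3 in each of 4 groups taken from the labels. The deposited values are raw counts per gene and library, whole numbers without normalization. Per the submitters' processing notes, the authors used STAR 2.7.10a, Salmon 1.9.0 and featureCounts 2.0.1 on mRatBN7.2. The use of strand and of molecular identifiers in counting is not given in the sources used here, so reads of antisense or overlapping genes may be shared. Depth was 11678450 to 13616935 counts per library, and counting error is the only error that count limits cover.

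The 6 libraries of each comparison were fitted alone with edgeR 4.0.16 in R 4.3.3, after filterByExpr and with TMM factors. The quasi-likelihood test was two-sided, and p-values were adjusted by Benjamini-Hochberg over all genes tested. Calls needed an adjusted p under 0.05 together with a log2 fold change over 1 in size, or, where stated, an unadjusted p under 0.05 with the same fold. The SE of an edgeR log2 fold change was taken as its size divided by the square root of the test's F statistic. CPM are counts scaled by TMM over 12 libraries, and r was computed on log2 CPM at a prior count of 2. Of other lists at most 4 genes were to be named, those with the largest change in Model at a mean of at least 1 CPM, plus receptors beside their ligands. Not all of these were named. Other genes of the lists were named after their values were seen, among them Pam, Cadps2, Scg3, Nppc, Cartpt, Gad1, Gad2, Arc, Ier2 and Fos. Alternatives were DESeq2 1.42.0, RLE factors, library size, other filters, 1 fit over 12 libraries, the replicate block, and leaving out libraries. The fits were tested on simulated data. The members and lists were chosen with earlier results of these data known. The labels number 3 replicates in a group without saying that each is a separate rat, and p-values measure only the spread between these libraries.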

Additional observations from a re-analysis of the deposited data

How the results depend on the processing

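The 4 precursors called higher in Model vs Sham were called under every alternative tried. For the counts of calls, 94 alternative values stayed within 1.5 times the main count and 22 did not. Adjusted p alone called 6951 genes in Model vs Sham, 651 in rt-PA+Acu vs Sham and 4522 for rt-PA+Acu vs rt-PA. DESeq2 called 74 genes and 1 neuropeptide in rt-PA vs Model, and 422 genes in rt-PA+Acu vs Sham, and 1 fit over all 12 libraries called 2 genes in rt-PA vs Model. Leaving out single libraries gave 0 to 3 genes in rt-PA vs Model, 2 to 4 neuropeptides for rt-PA+Acu vs rt-PA, and 0 to 3 neuropeptides and 82 to 359 genes in rt-PA+Acu vs Sham. Without Sham replicates 2 and 3 together, rt-PA+Acu vs Sham had 0 neuropeptides and 0 genes called.

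Of single precursors, 390 alternative values kept direction and side of the threshold, 21 changed sign, 19 lost a call and 2 gained one. Changes of sign concerned values near 0 or those that rest on Sham replicates 2 and 3. In Model vs Sham, Penk turned to 1.48 without both, and leaving out single libraries gave -0.85 to 0.33 for Penk, -0.10 to 0.09 for Sst and -0.57 to 0.01 for Vip. In rt-PA vs Model, Sst was 0.04 with library size alone, and leaving out single libraries gave -0.18 to 0.09 for Sst and -0.41 to 0.17 for Vip. In rt-PA+Acu vs rt-PA, Vip was -0.09 with library size alone and -0.01 with the replicate block, and leaving out single libraries gave -0.13 to 0.16 for Vip and -0.39 to 0.20 for Penk. In rt-PA+Acu vs Sham, without Sham replicates 2 and 3 together, Penk was 0.68 and Sst 0.02. The cause was not tested.

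The replicate numbers did not pair the libraries, with correlations of deviations between same-numbered libraries from -0.121 to 0.146. The replicate block left 1 neuropeptide called in rt-PA+Acu vs Sham (Pdyn, with Crh at an adjusted p of 0.0843 in edgeR) and took Pdyn to -0.99 in rt-PA+Acu vs rt-PA (edgeR, adjusted p 0.0565). The alternatives for the other lists and for the genes named beside the precursors were added after seeing the data. Where a fit leaves 1 Sham library, that library is assumed to vary like the others. With 3 libraries in a group, an exact permutation test of 1 gene cannot go below a p of 0.1.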
